A study of Mus musculus with 2 samples.

Results

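The ureteric bud and RET lineage genes examined here are 10 genes, Ret, Gdnf, Gfra1, Etv4, Etv5, Pax2, Pax8, Lhx1, Eya1 and Emx2. The rule that chose them used gene names and no measured value, but earlier results of these data were known when they were chosen. They are 10 of 29982 genes with values on the arrays. They were represented by 14 of 39429 probes, with 1 probe for 7 of the genes, 2 for Etv4 and Lhx1 and 3 for Pax2.

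Two-colour oligonucleotide arrays compared RNA of ureters dissected from E16.5 mouse embryos on an NMRI background, to find transcripts that depend on Pparg in the epithelium. The Pparg-cKO pools carried a Pax2-cre transgene (Pax2-cre/+) together with 2 floxed Pparg alleles (exons 2 and 3 between loxP sites), and the control pools carried a floxed Pparg allele, a second allele of unstated type, and no cre. Pax2-cre recombines in the nephric duct, the ureteric epithelium and the renal collecting duct system, so ureteric mesenchyme is not its target. There were 2 arrays, each with 1 pool of Pparg-cKO and 1 pool of control ureters, female on array 1 and male on array 2, with the dyes exchanged between the arrays. Titles and protocols give E16.5, whereas the stage label of the Pparg-cKO channel gives E14.5.

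The RNAs are named by dye. RNA A was the red sample (AlexaFluor647) in females and the green sample (AlexaFluor555) in males, and RNA B was its partner on each array. By the dye labels RNA A was the control and RNA B the Pparg-cKO, but the direction used in the study and in its deposited fold changes makes RNA A the Pparg-cKO. Every log2 ratio below is RNA A over RNA B, and the labels do not settle the genotype behind its sign. Sex and dye orientation switched at the same time and cannot be told apart, from each other or from other differences between the pools.

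GDNF is a secreted ligand of the metanephric mesenchyme. It binds the membrane-anchored co-receptor GFRA1 and activates the receptor tyrosine kinase RET on nephric duct and ureteric bud cells, which drives the outgrowth and branching of the bud. The ETS factors ETV4 and ETV5 act downstream of RET in the bud tips, while PAX2, PAX8, LHX1 and EMX2 are transcription factors of the duct and bud epithelium and EYA1 is a transcriptional co-activator needed for Gdnf expression. RET is also a receptor of autonomic neurons and their progenitors. In the ureter stalk the tip programme is low, and the epithelium becomes urothelium.

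None of the 10 genes was at least 1.5-fold brighter in RNA A on both arrays (background 0.157% of 29982 genes, counted where the brighter RNA reached a signal of 100 on each array), and none in RNA B (background 0.23%). None was past 1.5-fold in opposite directions (background 0.43%). limma called 0 of the 10 after Benjamini-Hochberg adjustment over 21429 genes well above background, against a background of 0.126% towards RNA A and 0.187% towards RNA B, and 0 of the 10 had an unadjusted p under 0.05. The lack of a call does not show equal levels, because only 2 arrays were measured. The limma 95% interval of the mean log2 ratio reached between 0.45 and 0.59 to either side of the mean. Since the RNA came from whole ureters, fewer cells of a type and less RNA per cell cannot be told apart.

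The labelled tissue was checked with markers of the urothelium and the ureteric wall, and 12 of 12 were well above background. Past the filter, Upk1a and Upk3a, which encode uroplakins of superficial cells, were both brighter in RNA B. In the study, in situ hybridization, which uses no array dyes, found Upk1a RNA lost or much reduced in fetal Pparg-cKO ureters. Read with that result, RNA B would be the control and RNA A the Pparg-cKO. Pparg itself, a ligand-dependent nuclear receptor, had signals of 11295 (RNA A) and 7430 (RNA B) in females, against 12888 and 7872 in males. Its log2 ratios of 0.60 and 0.71 were both past 1.5-fold with every signal above 100, so Pparg passed the filter in RNA A. Their average was 0.66 ± 0.08 (SD, n = 2 arrays), but limma did not call the gene (adjusted p = 0.615). Whether its probe lies outside the deleted exons was not established here, so this value checks no label.

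**Figure D1:**
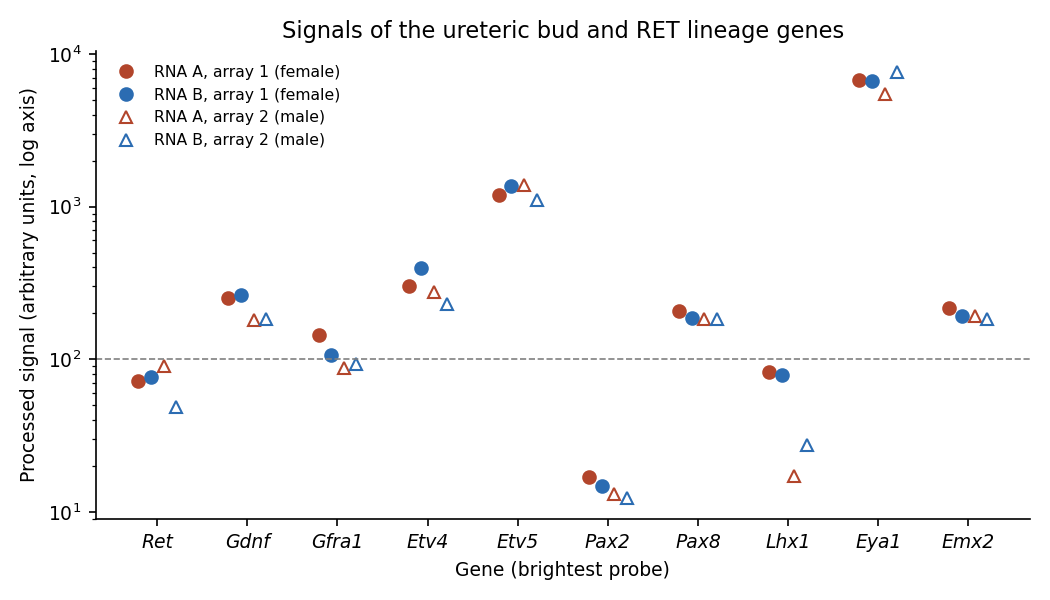
Processed signal (arbitrary units, log axis) of the brightest probe of each of the 10 genes in both RNAs on both arrays, with a dashed line at the signal of 100 used in the filter. Lhx1 lies at 82.2 and 78.8 on array 1 and at 17.2 and 27.6 on array 2, and heights of different genes are not comparable because each is read by its own probe.

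Ret, the receptor, was measured by 1 probe at chr6:118101791-118101850 (mm9, minus strand). Its signal was 71.9 (RNA A) and 77.0 (RNA B) in females, against 90.9 and 48.9 in males. The RNAs were close on array 1, and on array 2 RNA A lay above and RNA B below both array 1 values.

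The log2 ratio of Ret was -0.10 ± 0.09 (SD, n = 4 spots) on array 1 and 0.90 ± 0.06 (SD, n = 4 spots) on array 2, which is 1.86-fold. The average was 0.40 ± 0.70 (SD, n = 2 arrays), with a limma 95% interval from -0.19 to 0.99 (adjusted p = 1.00). The distance between the arrays was thus larger than the mean itself. Every Ret signal was below 100, so the gene could not have passed the filter on fold and signal. Ret and Lhx1 were the 2 genes of the 10 past 1.5-fold on array 2, where the background was 7.17% of tested genes, and 0 of the 10 passed on array 1.

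Gdnf, the ligand, was read by a probe at chr15:7787474-7787533 (plus strand). It had signals of 249.9 (RNA A) and 264.5 (RNA B) in females, against 181.5 and 182.3 in males. Both values of array 2 were below both of array 1, while within an array the RNAs nearly coincided. The mean log2 ratio was -0.04 ± 0.05 (SD, n = 2 arrays), with a limma 95% interval of 0.711-fold to 1.32-fold.

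Gfra1, the GDNF co-receptor, was read by a probe at chr19:58311604-58311663 (minus strand). Its signal was 143.1 (RNA A) and 106.5 (RNA B) in females, against 86.9 and 92.7 in males. RNA A on array 1 stood above the other channels, and the sign of the ratio turned between arrays. The log2 ratios were 0.43 ± 0.04 and -0.09 ± 0.02 (SD, n = 4 spots each), averaging 0.17 ± 0.37 (SD, n = 2 arrays) with a limma 95% interval from -0.32 to 0.66. The turn was opposite to that of Ret, its partner in the receptor complex. Both signals of array 2 were below 100, so Gfra1 could not have passed the filter either.

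The list of GDNF family ligands and receptors held 10 genes, of which 9 were well above background and 0 passed the filter or limma. Among the 9, the list median of the log2 ratio stood at -0.10 (array 1) and 0.13 (array 2), beside medians of -0.00038 and 0.03 over all tested genes. Ret had the highest mean of the list. The lowest was that of Artn, the ligand artemin, with ratios of -0.35 and -0.13.

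Etv4 was measured by 2 probes. The brighter one (chr11:101631057-101631116, minus strand) had signals of 301.2 (RNA A) and 393.1 (RNA B) in females, against 275.8 and 231.2 in males. Log2 ratios of -0.38 ± 0.05 (array 1) and 0.25 ± 0.03 (array 2) were obtained (SD, n = 4 spots each), averaging -0.07 ± 0.45 (SD, n = 2 arrays) with a limma 95% interval from -0.58 to 0.45. The dimmer probe (chr11:101631322-101631381) had the same signs, with ratios of -0.13 and 0.14. RNA B was thus the brighter RNA on the female array and RNA A on the male array by either probe.

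Etv5, its close relative, was read by 1 probe (chr16:22381387-22381446, minus strand) and turned in the same way. It had signals of 1183 (RNA A) and 1358 (RNA B) in females, against 1387 and 1098 in males. The ratio on the log2 scale was -0.20 ± 0.02 (SD, n = 4 spots) in females and 0.34 ± 0.01 (SD, n = 3 spots) in males. The average was 0.07 ± 0.38 (SD, n = 2 arrays) with a limma 95% interval from -0.43 to 0.56.

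**Figure D2:**
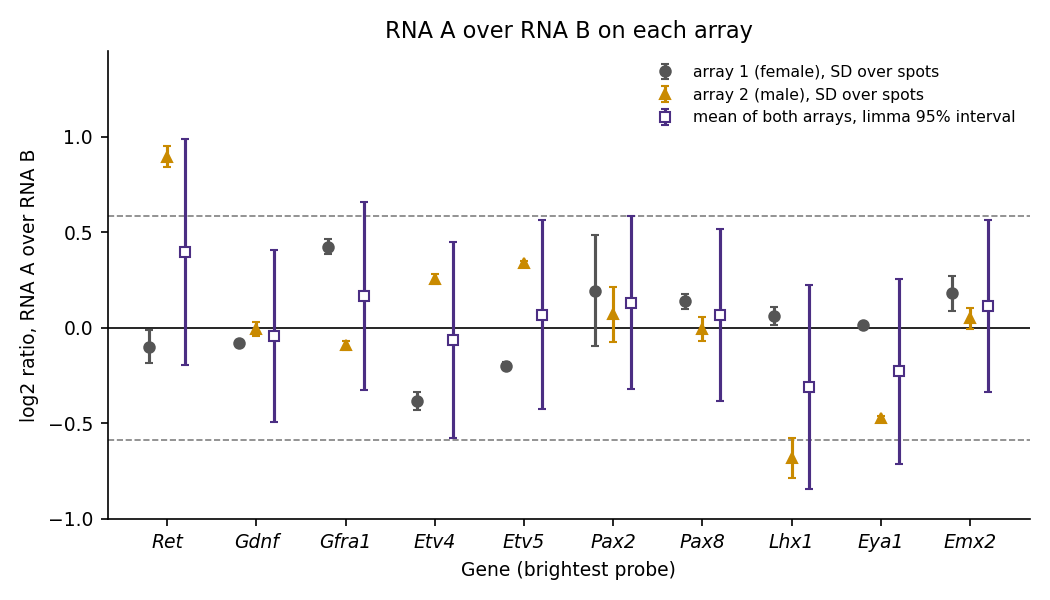
Log2 ratio of RNA A over RNA B for the 10 genes on array 1 (circles) and array 2 (triangles) with the SD over spots, and the mean of both arrays (squares) with its limma 95% interval. Dashed lines mark 1.5-fold, and all 10 intervals include 0.

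Of 15 RET-dependent tip genes, 15 were well above background and 0 passed the filter or limma. They included Wnt11, Sox8, Sox9, Cxcr4 and the Sprouty and Spred inhibitors of receptor tyrosine kinase signalling. The list median of the log2 ratio stood at 0.05 (array 1) and 0.25 (array 2), and 13 of 15 were above 0 on array 2 against 8 of 15 on array 1. Medians over all tested genes were -0.00038 (array 1) and 0.03 (array 2). Sox9, a factor of tip progenitors, had the highest mean of the list, with ratios of -0.03 and 0.71. Mmp14, a membrane-bound matrix metalloproteinase, had the lowest, with ratios of -0.31 and 0.01.

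Across the 10 genes, 3 had the same sign on both arrays (Gdnf, Pax2 and Emx2), against a background of 39% of tested genes. In the authors' deposited table the 3 were Gdnf, Pax8 (0.13 and 0.01) and Emx2, while Pax2 had ratios of -0.02 and 0.08. Ret, Etv4 and Etv5 were the 3 genes below 0 on array 1 and above 0 on array 2, a pattern held by 32.6% of all tested genes. The shares among the 10 were near these backgrounds. The same pattern was found in 7 of 15 tip genes and, among markers of other cells, in 9 of 12 autonomic neuron and glia genes and 5 of 5 cap mesenchyme and renal stroma genes.

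The autonomic list, which includes the noradrenergic factor Phox2a and the enzymes Th and Dbh, is given beside Ret because such neurons carry RET. All 12 were well above background, and their summed signal was 16316 (RNA A) and 19927 (RNA B) in females, against 25362 and 21768 in males. The list median of the log2 ratio stood at -0.08 (array 1) and 0.50 (array 2), with 3 of 12 above 0 on array 1 and 11 of 12 on array 2. Over all tested genes the medians were -0.00038 and 0.03. The highest mean was that of Prph, which encodes the neuronal filament peripherin (0.08 and 0.71). The part of these cells in the values of Ret was not tested.

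The 5 markers of cap mesenchyme and renal stroma, cells of the adjoining kidney, were all below 0 on array 1 (-0.40 to -0.23) and above 0 on array 2 (0.04 to 0.35). Their summed signal was 9886 (RNA A) and 12245 (RNA B) in females, against 10673 and 9132 in males. The lowest mean was that of Crym (-0.36 and 0.04), and the highest that of Meox1, a homeobox factor (-0.23 and 0.35). Their part in the values of Etv4 and Etv5 was not tested.

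**Figure D3:**
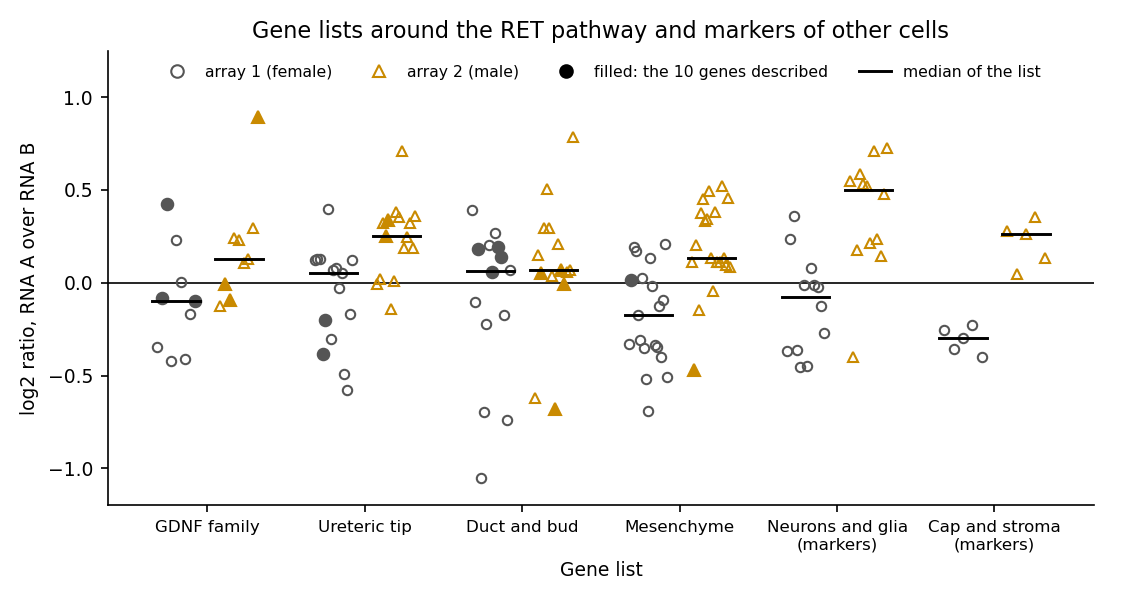
Log2 ratio of RNA A over RNA B for the genes well above background in 6 lists, on array 1 (circles) and array 2 (triangles), with bars at the medians and the 10 genes filled. The cap and stroma markers lie below 0 on array 1 and above 0 on array 2, and the median of the neuron and glia markers is -0.08 on array 1 and 0.50 on array 2.

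Pax2, a paired-box factor of the duct and of the condensing mesenchyme, was dim. The probe used for it lies at chr19:44909895-44909954 (plus strand). The second probe shown lies at chr19:44835420-44835479 and its signal was nowhere well above background. They are shown because the reading of Pax2 rests on the first and the second gave no level.
Pax2 probe with signal: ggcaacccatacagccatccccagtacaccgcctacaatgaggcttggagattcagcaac
Pax2 probe near background: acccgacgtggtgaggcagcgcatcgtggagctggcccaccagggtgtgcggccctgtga

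The first probe had signals of 17.0 (RNA A) and 14.9 (RNA B) in females, against 13.0 and 12.4 in males. Its log2 ratios were 0.19 ± 0.29 and 0.07 ± 0.14 (SD, n = 4 spots each), so that the spread between spots exceeded either ratio. The average was 0.13 ± 0.09 (SD, n = 2 arrays) with a limma 95% interval from -0.32 to 0.58. The third Pax2 probe (chr19:44871124-44871183) was likewise dim, well above background in RNA B on array 1 only, with signals from 2.38 to 4.55.

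Pax8, the related factor that acts with Pax2 in the nephric lineage, was read at chr2:24276147-24276206 (minus strand). It had signals of 206.0 (RNA A) and 187.0 (RNA B) in females, against 183.1 and 184.2 in males. Its 4 values lay within a narrow range, and the mean log2 ratio was 0.07 ± 0.10 (SD, n = 2 arrays) with a limma 95% interval of 0.765-fold to 1.43-fold. Emx2, a homeobox factor of the bud epithelium, was as even (chr19:59539142-59539201, plus strand). Its signals were 216.1 (RNA A) and 190.8 (RNA B) in females, against 191.1 and 184.6 in males, and the log2 ratio averaged 0.11 ± 0.09 (SD, n = 2 arrays) with a limma 95% interval of 0.792-fold to 1.48-fold.

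Lhx1, a LIM homeobox factor of the nephric duct, the bud tips and the earliest nephrons, differed between the arrays more than between the RNAs. The brighter probe (chr11:84331888-84331947, minus strand) had signals of 82.2 (RNA A) and 78.8 (RNA B) in females, against 17.2 and 27.6 in males. Both RNAs of the male array were far below both RNAs of the female array. The second probe, shown because it is a second reading of the same gene, spans 153 bases of the genome and so crosses a gap (chr11:84335442-84335594).
Second Lhx1 probe: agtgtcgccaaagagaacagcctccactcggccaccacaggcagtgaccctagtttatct

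It had signals of 14.8 (RNA A) and 15.4 (RNA B) in females, against 8.27 and 8.48 in males, where RNA B was not well above background. After centring on the median of all tested genes, the brighter probe was lower on array 2, at -2.33 (RNA A) and -1.58 (RNA B) on the log2 scale. For the second probe the difference was -0.91 in RNA A, and none is given for RNA B, which had only a bound on array 2.

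The log2 ratio of Lhx1 between the RNAs was 0.06 ± 0.05 on array 1 and -0.68 ± 0.11 on array 2 (SD, n = 4 spots each) by the brighter probe. The second probe gave -0.06 on array 1, and no ratio is given for array 2, where RNA B was not well above background. The mean of the brighter probe was -0.31 ± 0.52 (SD, n = 2 arrays) with a limma 95% interval from -0.84 to 0.22. All its signals were below 100, so Lhx1 could not have passed the filter.

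Over both RNAs, Lhx1 was 3.91-fold lower on array 2 by its brighter probe, at the 0.117 percentile of tested genes. With 1 array per sex, this difference has no replicate check, and sex, pool and array cannot be told apart. It was not the only one of the 10 to be lower. Gdnf, Gfra1, Etv4, Pax2, Pax8, Lhx1 and Emx2, 7 of the 10, were lower on array 2 in both RNAs, beside 20.3% of tested genes. The median-centred log2 difference over both RNAs was -0.58 for Gdnf, -0.54 for Gfra1 and -0.53 for Etv4, where the 5th percentile over tested genes was -0.41.

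Among lists on array 2 against array 1, 8 of 14 duct and bud regulators (Pax2, Pax8, Lhx1 and Emx2 among them) were lower in both RNAs and 0 higher in both, 3 of 5 cap and stroma markers lower and 0 higher, and 3 of 5 collecting duct markers lower and 0 higher. Of 7 nephron markers well above background, 1 was lower in both RNAs and 3 higher. The amount of kidney tissue in each pool was not recorded in the labels, and its part in the difference between arrays was not tested.

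**Figure D4:**
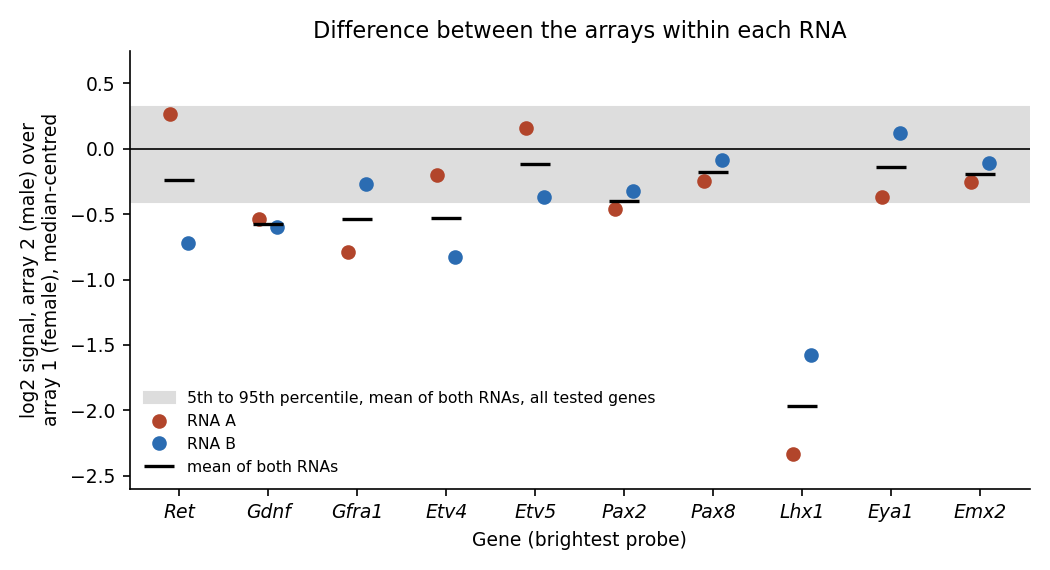
Log2 signal on array 2 (male) over array 1 (female) for the 10 genes, centred on the median of all tested genes, in RNA A and RNA B separately and as their mean (bars), with the 5th to 95th percentile of that mean over tested genes shaded. Lhx1 is lower on array 2, at -2.33 (RNA A) and -1.58 (RNA B).

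The list of 14 nephric duct and ureteric bud regulators was well above background throughout, and 0 passed the filter or limma. Its median log2 ratio between the RNAs was 0.06 on array 1 and 0.07 on array 2. Wnt9b, a ligand of the bud stalk that induces nephrons, had the highest mean (0.07 and 0.79). Gata3, a zinc-finger factor upstream of Ret in the nephric duct, had the lowest (-1.05 and 0.29), with signals of 1904 (RNA A) and 3946 (RNA B) in females, against 3854 and 3145 in males.

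Collecting duct markers are given beside these genes because the cre line is also active there. Of 7 such markers 5 were well above background, with summed signals of 925.1 (RNA A) and 643.0 (RNA B) in females, against 858.8 and 443.5 in males. Most of each sum came from Fxyd4, a regulator of the sodium pump, so the sums do not stand for the other markers. Its signals were 690.8 (RNA A) and 405.9 (RNA B) in females, against 683.9 and 232.6 in males. Fxyd4 passed the filter in RNA A with ratios of 0.77 and 1.56 but was not called by limma (adjusted p = 0.154), and had the highest mean. Scnn1g, a subunit of the epithelial sodium channel, had the lowest (-0.21 and -0.90). The part of collecting duct cells in the values of the 10 genes was not tested.

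Eya1 was measured by a single probe at chr1:14159982-14160041 (minus strand), whose sequence holds an unbroken run of 34 bases of a GT repeat. The last 30 bases of the probe are printed because they lie wholly in that run, in capitals.
Eya1 probe, last 30 bases: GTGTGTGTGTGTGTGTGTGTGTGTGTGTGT

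Its signals were 6765 (RNA A) and 6702 (RNA B) in females, against 5502 and 7620 in males. The ratio on the log2 scale was 0.01 ± 0.01 (SD, n = 3 spots) in females and -0.47 ± 0.01 (SD, n = 4 spots) in males, averaging -0.23 ± 0.34 (SD, n = 2 arrays) with a limma 95% interval from -0.71 to 0.26. The run of that length was present in 10 of 39429 probes (0.0254%). The other 9 are named for other genes, among them Hemgn, Ung, Madd and Pak4, named here after their values were seen.

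All 9 had the same pattern as Eya1. Their log2 ratios lay between -0.11 and 0.07 on array 1 (median -0.01) and between -0.54 and -0.40 on array 2 (median -0.43), and 9 of 9 were well above background with signals from 5817 to 36433. Both ratios of Eya1 lay within the ranges of these probes for other genes, and the reading is therefore uncertain as a measure of Eya1. The part of the repeat in these values was not tested.

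**Figure D5:**
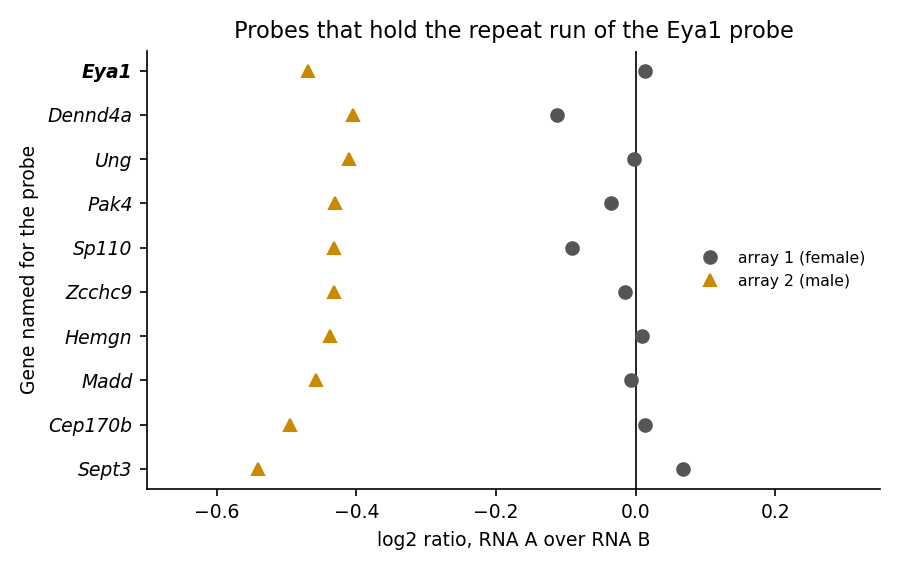
Log2 ratio of RNA A over RNA B on array 1 (circles) and array 2 (triangles) for the Eya1 probe and the other 9 probes that hold its run of 34 repeat bases. All 10 lie near 0 on array 1 and between -0.54 and -0.40 on array 2.

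Of 20 mesenchymal regulators of Gdnf, a list that includes Eya1, 19 were well above background and 0 passed the filter or limma. The list median of the log2 ratio stood at -0.18 (array 1) and 0.13 (array 2). Of the 19, 13 were below 0 on array 1 and above 0 on array 2, beside 32.6% of all tested genes. Slit2, a secreted ligand whose signal restricts the Gdnf domain, had the highest mean (0.21 and 0.46). Hoxd11, a homeobox factor that promotes Gdnf expression, had the lowest (-0.69 and 0.13). Eya1 was the lowest of this list on array 2, by the repeat probe whose reading is uncertain as a measure of the gene.

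Other markers were taken as checks on tissue next to the ureter. Of 10 nephron markers 7 were well above background, of which 6 leaned to RNA B on each array, with summed signals of 2951 (RNA A) and 3117 (RNA B) in females, against 3534 and 4241 in males. Over all tested genes, 39% had the same sign on both arrays, in either direction. Slc34a1, a phosphate transporter of the proximal tubule, was the only nephron marker called by limma (adjusted p = 0.0122), with signals of 6.20 (RNA A) and 30.8 (RNA B) in females, against 4.20 and 37.2 in males. RNA A was well above background at this probe on 1 of 2 arrays. The highest mean of this list was that of Aqp1, a water channel (0.03 and -0.23). Aqp1 gave most of each summed signal, with 2508.3 (RNA A) and 2460.2 (RNA B) in females, against 3078.5 and 3599 in males. Of 11 markers of gonad and genital ducts 8 were well above background and 0 were called, from Star (0.00 and -0.84) to Cyp11a1 (0.59 and -0.04), both of steroid synthesis, with summed signals from 3665 to 4490. In the urothelium and wall list the lowest mean was that of Upk1a (-1.42 and -1.22, limma adjusted p = 0.0451) and the highest that of Krt5, a keratin of basal cells (0.26 and 0.67). Upk3a had ratios of -0.64 and -0.77.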

How the data were processed

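The authors scanned 2 dual-colour arrays with Agilent Feature Extraction 10.7.3.1. Per the file headers the deposited processed intensities were background-subtracted, set to surrogates near background and dye-normalised by a linear step and LOWESS, which bears most on dim probes such as those of Pax2. The deposited log10 ratios were used only to check the dyes, and outlier flags and the authors' other columns only to leave out spots. Fold changes with a sign, deposited by the authors as a further table (a score with no value between -1 and 1), served as an alternative. In it, 11 of 11 member values beyond 1.1-fold had the sign of RNA A over RNA B.

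Control spots (17263 per array) and flagged probe spots (5705 and 5579 of 157716) were left out, and log2 processed signals averaged over the 4 spots of a probe. No spot was saturated. Green spots were well above background in 80.3% to 80.4% and red spots in 70.4%. The brightest probe stood for a gene. A gene was tested where its probe was well above background (at least 0.5 of spots) on both arrays in at least 1 RNA. limma 3.58.1 (R 4.3.3, lmFit with an intercept, eBayes) gave two-sided p-values with Benjamini-Hochberg adjustment at 0.05. An exact permutation test with 2 arrays cannot go below p = 0.5. The limma and filter code was tested on simulated data. Positions are those of the files (mm9), and exon or UTR annotation was not used here. Each genotype had 1 pool per sex, of ureters from several embryos. The arrays shared 1 slide and 1 scan, so there was no batch to use as a block. Names of 28328 of 39429 probes came from RefSeq (GRCm38.p6), the rest from the files. Tables were handled with pandas 2.3.3 and plots drawn with matplotlib 3.10.9.

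The 10 genes and the lists were chosen with earlier results of these data known. Named are the 10 genes, Pparg, list genes past the filter or limma, and the highest and lowest mean of each list among genes well above background. A gene that the rule would name is not reported here.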

Additional observations from a re-analysis of the deposited data

Results flagged for a closer look

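Of 29 genes named by rule, 16 had log2 ratios of opposite sign on the female and the male array, 7 of them among the 10 ureteric bud and RET lineage genes. Only 39% of all tested genes had the same sign on both arrays, so a change of sign was common and not particular to these genes. With 1 array per sex the difference was not tested, and sex and dye orientation cannot be told apart. The ratio on array 2 minus that on array 1 was 0.99 for Ret, 0.64 for Etv4 and 0.54 for Etv5. It was -0.52 for Gfra1, -0.15 for Pax8, -0.74 for Lhx1 and -0.48 for Eya1.

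Among list genes the difference was 0.31 for Mmp14, 1.34 for Gata3, 0.83 for Hoxd11 and 0.74 for Sox9. For markers of other cells it was 0.40 for Crym, 0.58 for Meox1, -0.84 for Star, -0.25 for Aqp1 and -0.63 for Cyp11a1.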

How the results depend on the processing

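The ratio on each array already pairs both RNAs, and limma was fitted to these ratios. No further pairing was possible because the labels form 1 group of arrays. The 10 genes had 0 past the 1.5-fold filter in RNA A, in RNA B and in opposite directions under normexp with loess, loess on the processed signals, median centring, the authors' deposited table, the mean over probes, no intensity threshold, a threshold of 200 and a 2-fold limit. limma called 0 of them under each of these normalisations and probe rules, without the filter on dim probes and with an intensity trend (adjusted p = 1.00 throughout). It also called 0 where a gene had only to be well above background in either RNA on each array, an alternative chosen after seeing the data, although calls over all genes went from 67 to 1. Over all genes limma made 1 call with normexp and loess, 28 with loess on processed signals, 0 with the deposited table and 0 without the filter on dim probes. Genes of the 10 with the same sign on both arrays went from 3 to 6 with normexp and loess, where Pax8 had ratios of 0.07 and 0.02, Lhx1 -0.01 and -0.31 and Eya1 -0.07 and -0.44. The cause was not tested. They were 4 with the mean over probes, which added Lhx1, and 3 with the deposited table, where Pax8 took the place of Pax2. The sign of no mean ratio turned under these normalisations and probe rules. That of Pax2 moved from 0.13 to 0.03 with the deposited table, and that of Lhx1 from -0.31 to -0.18 with the mean over probes, which includes the probe not well above background in RNA B on array 2. Without replicate 1 or 2 the filter counts ranged from 0 to 0 in each direction, and limma and sign counts could not be computed from 1 array. Ret went from -0.10 (without the male array) to 0.90 (without the female array). Signals below 100 in both RNAs on at least 1 array limit Ret, Gfra1, Pax2 and Lhx1, so 6 of the 10 could have passed the filter.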
